A study of Mus musculus with 6 samples.

Results

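Genes of fatty acid synthesis and of the lipid droplet coat were compared among 3 mouse mammary lines. The members were taken by name (Fasn, Acaca, Acly, Scd1, Scd2, Elovl6, Srebf1, Plin2, Plin3 and Plin4), and all 10 were found among the 11417 genes of the deposited table. Poly(A) RNA of the established lines BC44, HC11 and C57MG was sequenced in 2 libraries per line, without treatment, on plastic. BC44 was grown in RPMI1640 with 10% serum and 5 µg/ml insulin. HC11 had the same medium plus EGF (epidermal growth factor) at 10 ng/ml. C57MG was grown in DMEM GlutaMAX with 10% serum and 10 µg/ml insulin. All groups therefore received serum and insulin. BC44 and HC11 shared medium and insulin dose, so of the stated factors line and EGF cannot be told apart in that pair. In the pairs with C57MG, line, medium and insulin dose cannot be told apart, nor can EGF where HC11 is compared. Each group is a single cell line. The labels do not say that the 2 libraries of a line came from separate cultures, so p-values measure only the spread between these libraries.

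Fatty acids are built in the cytosol from acetyl-CoA. ATP citrate lyase (Acly) makes acetyl-CoA from citrate, acetyl-CoA carboxylase (Acaca) turns it into malonyl-CoA, and fatty acid synthase (Fasn) joins these units into palmitate. Elovl6 lengthens the product, and the stearoyl-CoA desaturases Scd1 and Scd2 add a double bond. Srebf1 encodes a membrane-bound factor that, once cleaved, switches on many of these genes. Fatty acids stored as triglyceride lie in lipid droplets coated by perilipins. In the mammary gland this pathway supplies milk fat during lactation, and Plin2 is found on the milk fat globule.

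RPKM scales the reads of a gene to its length in kilobases and to 1000000 reads of the library, so levels of different genes may be set side by side. The estimated depth was 14270000 to 18380000 reads per library, and apart from Plin4 each member rested on an estimated 1171 to 45826 reads in every library. These read numbers cover counting error only. The labels call all 3 lines mammary epithelial. In C57MG replicates 1 and 2 the epithelial markers summed to 137 and 65.5 RPKM over the 11 analysed. Epcam was at 0.949 and 0 RPKM in these libraries. The sums were 2280 to 5070 RPKM in the libraries of the other lines. Krt5 and Krt14 made up most of each sum. All 11 markers reached 1 RPKM in each HC11 library, but only 8 did in each BC44 library. Krt8, Krt18 and Cldn3 averaged 0.051, 0 and 0 RPKM in BC44, against 146, 91.3 and 74.6 RPKM in HC11. The 11 mesenchymal markers summed to 7670 and 7460 RPKM in C57MG and to 256 to 392 RPKM elsewhere. Krt14 was the highest epithelial marker in every line (2730, 1240 and 91.4 RPKM on average in BC44, HC11 and C57MG), and the highest mesenchymal marker was Fn1 in BC44 and HC11 (234 and 220 RPKM) and S100a4 in C57MG (3740 RPKM). The part of this difference in the results on C57MG was not tested. In these bulk libraries, fewer cells of a type and less RNA per cell cannot be told apart.

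The 10 genes did not move as a block. Fasn, Acaca, Acly and Srebf1 were highest in HC11, whereas Elovl6, Plin2, Plin3 and Plin4 were highest in C57MG, and Scd2 passed the test in no pair of lines. Plin4 passed the filter on low values only through its C57MG libraries, so it is described by its values only, and the counts are over the other 9 genes. With limma on log2(RPKM + 1) and a Benjamini-Hochberg adjusted p-value under 0.05, 7 of the 9 differed between BC44 and HC11, where 47.7% of all 10759 tested genes did. Of these 7, 5 were higher in HC11 (background 23.0%) and 2 in BC44 (24.7%). Between BC44 and C57MG 7 of 9 differed (background 71.7%), 5 higher in C57MG (34.1%) and 2 in BC44 (37.5%). Between HC11 and C57MG 7 of 9 differed (background 70.5%), 4 higher in HC11 (37.4%) and 3 in C57MG (33.2%). The shares with C57MG were thus near those of all genes. The median log2 fold change of the 9 was -0.54, -0.53 and 0.33 in the same order, against 0.02, 0.04 and 0.03 over all tested genes. Fasn, Acaca, Acly, Elovl6 and Plin2 passed in all 3 pairs, as 26.8% of tested genes did. The libraries of a pair did not overlap for 7 of 9 genes between BC44 and HC11 (all genes 73.0%), 7 between BC44 and C57MG (87.9%) and 8 between HC11 and C57MG (86.2%). Without BC44 replicate 2, 5 of the 9 genes passed between BC44 and HC11.

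**Figure D1:**
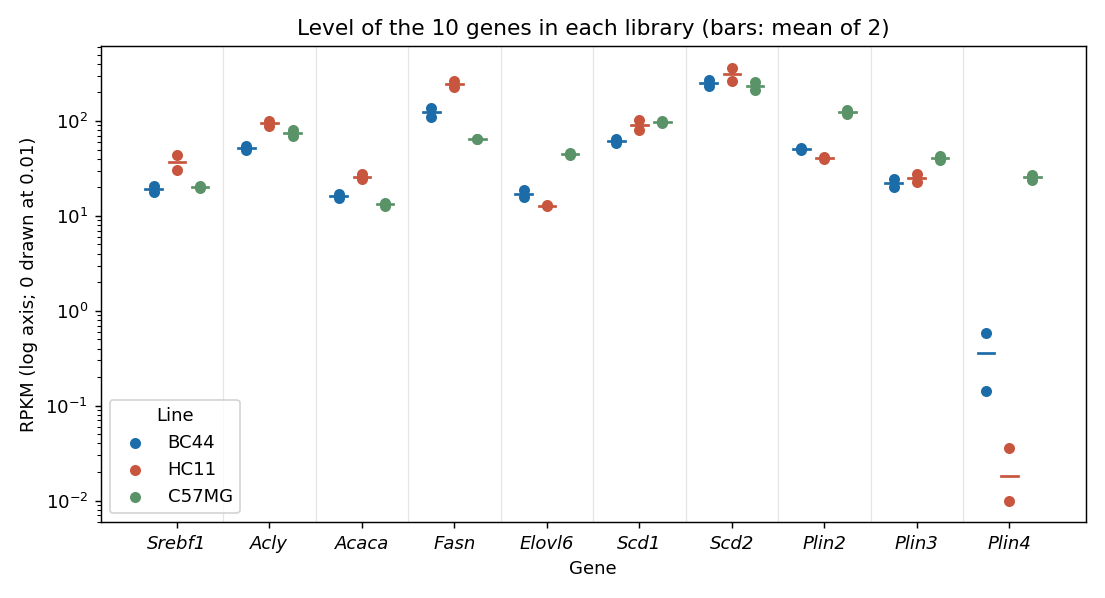
RPKM of the 10 genes (log axis, 0 drawn at 0.01) in each of 6 libraries, coloured by line, with a bar at the mean of the 2 libraries. Fasn, Acaca, Acly and Srebf1 are highest in HC11, Elovl6 and the 3 perilipin genes are highest in C57MG, and Plin4 is under 1 RPKM in BC44 and HC11.

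Fasn (ENSMUSG00000025153, chromosome 11, 120805846 to 120824547, minus strand, GRCm38) showed the widest range among the synthesis enzymes. It was at 227.755 and 266.012 RPKM in HC11 replicates 1 and 2, at 111.135 and 138.641 in BC44 and at 64.312 and 63.940 in C57MG. No libraries of different lines overlapped. The means were 247 ± 27.1, 125 ± 19.4 and 64.1 ± 0.263 RPKM (SD, n = 2 each), so HC11 was 1.98 times BC44 and 3.85 times C57MG, and BC44 was 1.95 times C57MG. As a log2 fold change, BC44 stood at -0.98 relative to HC11 (SE 0.12, adjusted p from limma 0.000527) and at 0.94 relative to C57MG (SE 0.12, 0.000255). HC11 stood at 1.92 relative to C57MG (SE 0.12, 6.13e-06). All 3 differences passed under each of the 15 alternative settings. The 45 tested genes within 1 Mb of Fasn had a median log2 fold change of 0.06, 0.60 and 0.48 in the same order, and the part of this neighbourhood shift in the Fasn difference was not tested.

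The Fasn promoter is shown because Fasn differed most among the synthesis enzymes. It is the 250 bases before the RefSeq start site (chr11:120824548-120824797, minus strand, GRCm38.p6), printed 5′ to 3′ with each CCAAT box in capitals on either strand (CCAAT or ATTGG).
Fasn: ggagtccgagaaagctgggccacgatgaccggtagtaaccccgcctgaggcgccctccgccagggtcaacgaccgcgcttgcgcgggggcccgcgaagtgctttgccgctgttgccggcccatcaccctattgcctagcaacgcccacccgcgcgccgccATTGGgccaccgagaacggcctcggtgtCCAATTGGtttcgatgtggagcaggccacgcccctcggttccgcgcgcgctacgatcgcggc
The window held 3 CCAAT boxes, at -90 to -86, -62 to -58 and -59 to -55 from the start site, the last 2 of which overlap in the run of capitals nearest the start. RefSeq start sites were matched for 8 of the 10 members, at 10 start sites since Srebf1 has 3, and CCAAT was in 6 of these 10 windows, against 33.8% of the 32851 windows of the same length. The GC box GGGCGG was in 4 of the 10 windows and in 32.7% of all. Of the 10 start sites 4 lie more than 100 bases inside the annotated gene (Acaca, Plin3 and 2 of Srebf1), and of the other 6 windows 4 held CCAAT and 1 held the GC box. The sterol regulatory element TCACNCCAC and the E-box CACGTG, like the others searched on both strands, were in none of the 10. They were in 1.05% and 6.02% of all windows. Only exact matches within these 250 bases were counted, so variant sites and sites elsewhere were not searched. The Acaca start site lies 65766 bases inside its gene.

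Acaca and Acly, which act before Fasn, were also highest in HC11. Acaca (chromosome 11, 84129672 to 84401651, plus strand) was at 27.681 and 24.242 RPKM in HC11, at 15.258 and 17.214 in BC44 and at 12.724 and 13.687 in C57MG. The HC11 libraries lay above all others, and the BC44 libraries lay just above those of C57MG. HC11 was 1.60 times BC44 (log2 fold change of BC44 relative to HC11 -0.64, SE 0.10, limma adjusted p 0.00194) and 1.97 times C57MG (0.92, SE 0.10, 0.000143). The excess of BC44 over C57MG was 1.23 times (0.28, SE 0.10, limma adjusted p 0.0444). This last difference did not pass in 5 of 15 alternatives. The limma adjusted p was 0.212 without BC44 replicate 2 (0.20), 0.204 without C57MG replicate 1 (0.23) and 0.0883 without C57MG replicate 2 (0.33). It was 0.0561 with median-ratio scaling and 0.051 without a variance trend.

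Acly (chromosome 11, 100476353 to 100528000, minus strand) placed C57MG between the other lines. It was at 89.217 and 100.502 RPKM in HC11, at 80.994 and 69.752 in C57MG and at 49.297 and 54.151 in BC44. The 3 lines did not overlap. HC11 was 1.83 times BC44 (log2 fold change of BC44 relative to HC11 -0.86, SE 0.10, limma adjusted p 0.000473), and C57MG was 1.46 times BC44 (BC44 against C57MG -0.53, SE 0.10, 0.00242). HC11 was 1.26 times C57MG (0.33, SE 0.10, limma adjusted p 0.0231), a difference that did not pass without C57MG replicate 2 (0.22, 0.161) or without HC11 replicate 2 (0.24, 0.12). Fasn and Acly thus ordered BC44 and C57MG oppositely, with Fasn higher in BC44 and Acly higher in C57MG.

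Srebf1 (chromosome 11, 60199089 to 60222581, minus strand) was at 43.379 and 30.139 RPKM in HC11, at 20.540 and 17.740 in BC44 and at 19.692 and 20.803 in C57MG. The HC11 libraries were above the rest but 1.44 times apart from each other, while BC44 and C57MG overlapped. HC11 was 1.92 times BC44 (log2 fold change of BC44 relative to HC11 -0.89, SE 0.16, limma adjusted p 0.00353) and 1.82 times C57MG (0.81, SE 0.16, 0.00301). BC44 and C57MG gave -0.08 (SE 0.16, limma adjusted p 0.677), which became 0.02 without BC44 replicate 2 (0.943). The gene-level value does not separate the start sites of Srebf1. The annotated span of Srebf1 shares 109 bases with Rai1 on the opposite strand, which was at 5.544 to 10.577 RPKM, and whether counting used the strand is not stated. The 36 tested genes within 1 Mb had a median log2 fold change of -0.25 for BC44 against HC11 and 0.49 for HC11 against C57MG. Their part in the Srebf1 difference was not tested.

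Elovl6 was highest in C57MG, whereas Acly, Acaca and Fasn were highest in HC11. Elovl6 (chromosome 3, 129532355 to 129638495, plus strand) was at 46.231 and 43.630 RPKM in C57MG, at 15.734 and 18.529 in BC44 and at 12.984 and 12.760 in HC11. The C57MG libraries were far above the other 4, and those of BC44 were above those of HC11. C57MG was 2.62 times BC44 (BC44 against C57MG -1.34, SE 0.10, limma adjusted p 1.14e-05) and 3.49 times HC11 (HC11 against C57MG -1.73, SE 0.10, 3.64e-06). BC44 was 1.33 times HC11 (0.38, SE 0.10, limma adjusted p 0.0154). That smaller difference did not pass without BC44 replicate 2 (0.27, 0.0792) or without HC11 replicate 2 (0.37, 0.0602). Elovl6 was thus lowest in HC11, the line with the most Fasn RNA.

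The desaturase genes Scd1 and Scd2, which are neighbours on chromosome 19 (44394455 to 44407879, minus strand, and 44293674 to 44306864, plus strand), varied less. Scd2 was the most abundant of the 10 genes in each line by its mean, above 98.5% of listed genes in C57MG, 98.6% in BC44 and 98.8% in HC11. It was at 365.665 and 264.510 RPKM in HC11, at 271.818 and 233.161 in BC44 and at 258.923 and 211.250 in C57MG. BC44 overlapped both other lines, and HC11 replicate 1 stood above the rest. The log2 fold changes were -0.30 for BC44 relative to HC11, 0.11 relative to C57MG, and 0.41 for HC11 relative to C57MG, each with SE 0.17 and with limma adjusted p-values of 0.18, 0.595 and 0.0618. Without HC11 replicate 2 the first and the last passed (-0.54, 0.0407, and 0.64, 0.0137). The BC44 against C57MG difference changed sign without BC44 replicate 1 or C57MG replicate 2.

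Scd1 was at 94.604 and 100.458 RPKM in C57MG, at 103.102 and 79.879 in HC11 and at 65.013 and 59.040 in BC44. C57MG and HC11 overlapped, and BC44 lay below both. BC44 was lower than C57MG (log2 fold change -0.65, SE 0.12, limma adjusted p 0.00221) and lower than HC11 (-0.54, SE 0.12, 0.00929), although the latter did not pass without BC44 replicate 2 (-0.48, 0.0695). HC11 against C57MG gave -0.10 (SE 0.12, limma adjusted p 0.485). That value was -0.28 (0.0402) without HC11 replicate 1 and 0.08 (0.478) without HC11 replicate 2. The ratio of Scd2 to Scd1 within a library was 2.74 and 2.10 in C57MG, 3.55 and 3.31 in HC11 and 4.18 and 3.95 in BC44. The balance of the desaturase genes therefore shifted toward Scd1 in both C57MG libraries, with no test made of the ratio. The genes have related sequences, and how shared reads were assigned is not stated. In HC11, Srebf1, Scd1 and Scd2 were all higher in replicate 1, by 1.44, 1.29 and 1.38 times, whereas Fasn and Acly were higher in replicate 2, by 1.17 and 1.13 times.

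**Figure D2:**
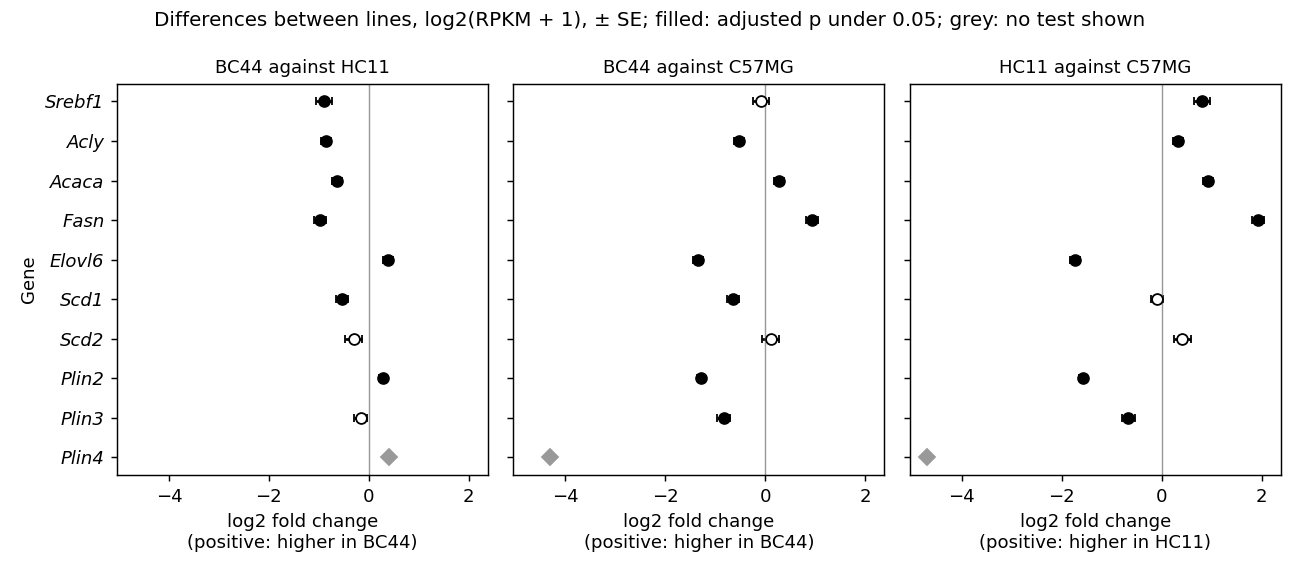
Log2 fold change on the log2(RPKM + 1) scale (x axis) of each gene (y axis) in the 3 pairs of lines, with SE bars and filled points for a limma adjusted p under 0.05. Plin4 is drawn in grey without a test. Fasn is lower in BC44 than in HC11 (-0.98) and higher in HC11 than in C57MG (1.92), while Elovl6 and Plin2 lie at -1.73 and -1.57 in HC11 against C57MG, and Plin4 at -4.70.

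The 3 perilipin genes were all highest in C57MG. Plin2, the perilipin found on droplets of most cell types, was at 129.418 and 118.883 RPKM in C57MG, at 51.996 and 48.955 in BC44 and at 40.199 and 42.228 in HC11. No lines overlapped, and the C57MG libraries stood well apart. Plin2 (chromosome 4, 86648386 to 86670060, minus strand) was 2.46 times higher in C57MG than in BC44 (BC44 against C57MG -1.28, SE 0.08, limma adjusted p 5.09e-06). It was 3.01 times higher in C57MG than in HC11 (HC11 against C57MG -1.57, SE 0.08, 2.14e-06). BC44 was 1.22 times HC11 (0.29, SE 0.08, limma adjusted p 0.0215), which did not pass without BC44 replicate 1 (0.24, 0.105) or without HC11 replicate 1 (0.25, 0.0733). The 4 tested genes within 1 Mb of Plin2 had median log2 fold changes of -0.59 for BC44 against C57MG and -1.17 for HC11 against C57MG, and their part in the Plin2 difference was not tested.

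Elovl6 and Plin2 had the most similar profiles of any pair among the 10 genes. The root mean square distance between their gene-centred log2(RPKM + 1) values over the 6 libraries was 0.11, and the next pair, Acaca and Srebf1, was at 0.21. Their promoters are shown because they followed the same order of lines, together with that of Plin4. Each is the 250 bases before the RefSeq start site (GRCm38.p6), 5′ to 3′, at chr3:129532136-129532385 (plus strand), chr4:86670060-86670309 (minus strand) and chr17:56109783-56110032 (minus strand), with CCAAT boxes on either strand in capitals.
Elovl6: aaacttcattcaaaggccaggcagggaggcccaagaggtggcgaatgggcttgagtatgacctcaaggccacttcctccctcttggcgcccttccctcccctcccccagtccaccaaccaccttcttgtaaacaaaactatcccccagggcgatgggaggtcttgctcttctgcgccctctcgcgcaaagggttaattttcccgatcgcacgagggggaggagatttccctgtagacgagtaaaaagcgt
Plin2: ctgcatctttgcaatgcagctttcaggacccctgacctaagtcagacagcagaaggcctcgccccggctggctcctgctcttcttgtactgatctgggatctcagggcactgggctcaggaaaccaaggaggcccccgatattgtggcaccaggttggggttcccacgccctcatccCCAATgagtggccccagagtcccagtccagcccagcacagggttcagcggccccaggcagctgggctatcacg
Plin4: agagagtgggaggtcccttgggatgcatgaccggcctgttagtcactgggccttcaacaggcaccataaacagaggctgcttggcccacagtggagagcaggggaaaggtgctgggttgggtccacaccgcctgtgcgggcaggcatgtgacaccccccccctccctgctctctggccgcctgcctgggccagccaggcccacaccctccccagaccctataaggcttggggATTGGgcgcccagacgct
Elovl6 had no CCAAT box in its window, and Plin2 and Plin4 had 1 each, at -73 to -69 and at -18 to -14.

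Plin3, a perilipin that also occurs free in the cytosol, differed less. Plin3 (chromosome 17, 56277476 to 56292873, minus strand) was at 38.470 and 42.450 RPKM in C57MG, at 27.508 and 22.854 in HC11 and at 24.646 and 20.254 in BC44. C57MG was above the other lines, which overlapped each other. C57MG was 1.80 times BC44 (BC44 against C57MG -0.83, SE 0.13, limma adjusted p 0.000688) and 1.61 times HC11 (HC11 against C57MG -0.67, SE 0.13, 0.00224). BC44 against HC11 gave -0.16 (SE 0.13, limma adjusted p 0.341). The ratio of Plin3 to Plin2 was 0.684 and 0.541 in HC11, 0.474 and 0.414 in BC44 and 0.297 and 0.357 in C57MG. Plin2 exceeded Plin3 in every library, and by most in C57MG.

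Plin4, a perilipin known from adipocytes and muscle, was expressed in C57MG and was near the detection floor in HC11. Plin4 (chromosome 17, 56100591 to 56109803, minus strand) was at 26.682 and 24.141 RPKM in C57MG, at 0.143 and 0.578 in BC44 and at 0 and 0.036 in HC11. The C57MG libraries were far above the other 4. The estimated reads were 2764 and 2148 in C57MG, 12 and 58 in BC44, and 0 and 3 in HC11. Both HC11 libraries were at or under a floor of 3 reads per library, and C57MG was at least 786-fold higher than that floor. The BC44 libraries were 4.04 times apart, and no fold over their mean is given. On the log2(RPKM + 1) scale BC44 stood at -4.30 relative to C57MG and HC11 at -4.70, which became -5.97 and -7.77 with a pseudocount of 0.1. BC44 stood at 0.40 relative to HC11, or 1.80 with a pseudocount of 0.1 and 0.17 without BC44 replicate 2.

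The low Plin4 values in BC44 lay within a low level of C57MG genes in those libraries. A gene other than Plin4 was called private to C57MG if its C57MG mean reached 20 RPKM, its HC11 mean was no more than 2% of that, and the remaining BC44 library was no more than 5%. Their median level in BC44 replicate 1 was 0.682% of that in C57MG (72 genes, quartiles 0.526% and 1.63%), and Plin4 was at 0.563%. In BC44 replicate 2 the median was 2.01% (71 genes, quartiles 1.65% and 2.60%), and Plin4 was at 2.27%. Plin4 was therefore between the quartiles in both BC44 libraries, and no level of its own in BC44 can be read from these values. The private genes were chosen partly by a low level in the other BC44 library, so their low percentages were partly set by that choice. Where the low level came from was not tested.

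**Figure D3:**
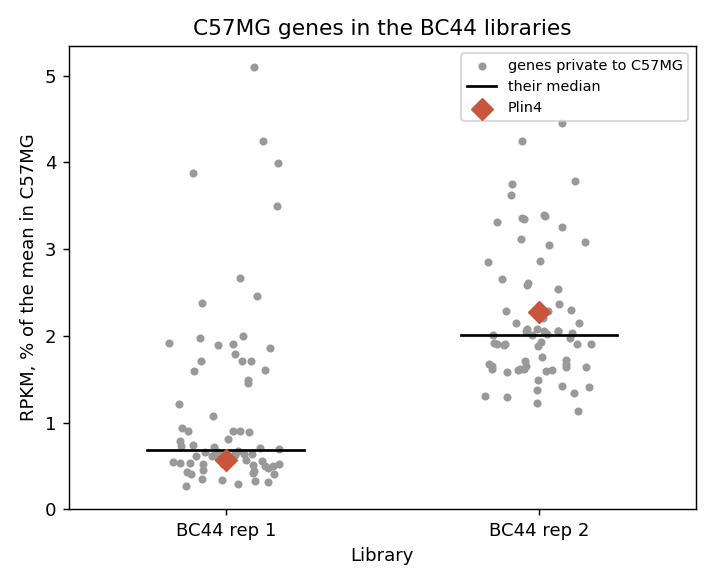
RPKM in each BC44 library as a percentage of the C57MG mean (y axis) for genes private to C57MG (grey points, black bar at the median) and for Plin4 (diamond). Plin4 lies at 0.563% and 2.27%, close to the medians of 0.682% and 2.01%.

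Adipocyte markers were low in all 3 lines. Of 10 adipocyte markers 4 were analysed (Fabp4, Pparg, Lipe and Cebpa), and Adipoq, Lep, Retn, Cfd, Plin1 and Cidec were not analysed here. The 4 summed to 5.49 and 5.16 RPKM in C57MG, 9.04 and 7.94 in BC44 and 10.6 and 14.4 in HC11. Pparg, the adipocyte nuclear receptor, was at 1.99 ± 0.501 RPKM (SD, n = 2) in C57MG and was listed at 0 in both HC11 libraries. Lipe was highest in C57MG, at 2.75 ± 0.514 RPKM against 1.45 ± 0.179 in HC11 and 0.485 ± 0.148 in BC44. Cebpa was lowest in C57MG at 0.0315 ± 0.0445 RPKM, against 6.44 ± 0.368 in BC44 (SD, n = 2). Fabp4 was lowest there too, at 0.551 ± 0.204 RPKM.

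Other genes that supply or modify fatty acids split between the lines. Of 25 listed, 22 were analysed and 21 tested, and 13, 14 and 16 passed with limma in the pairs BC44 with HC11, BC44 with C57MG, and HC11 with C57MG, or 61.9%, 66.7% and 76.2% of those tested, where the shares of all genes were 47.7%, 71.7% and 70.5%. Between BC44 and HC11, 9 genes were higher in BC44 (24.7% of all genes) and 4 in HC11 (23.0%). Between BC44 and C57MG, 10 were higher in C57MG (34.1%) and 4 in BC44 (37.5%). Between HC11 and C57MG, 12 were higher in C57MG (33.2%) and 4 in HC11 (37.4%). Acss2, which passed the filter on low values only through its C57MG libraries, is counted as higher in C57MG in both pairs with C57MG. The median log2 fold changes were 0.14, -0.23 and -0.50. Acsl1, which activates long-chain fatty acids, was at 15.5 ± 0.443 RPKM in C57MG, 3.66 ± 0.33 in HC11 and 1.57 ± 0.0226 in BC44. Acsl4, which prefers arachidonate, was instead highest in HC11, at 42.7 ± 4.24 RPKM against 15.4 ± 0.317 in C57MG and 10.4 ± 1.16 in BC44 (SD, n = 2 for each). Fads2, the delta-6 desaturase, was highest in BC44 at 196 ± 17.2 RPKM against 111 ± 18.6 in HC11 and 126 ± 12.9 in C57MG. Fads3 was at 48.4 ± 3.99 in BC44 and 19.0 ± 1.49 in C57MG, and the elongase gene Elovl7 at 6.24 ± 0.419 in HC11 and 1.64 ± 0.158 in C57MG.

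Regulators of the pathway included Insig1 and Insig2, both highest in C57MG. Of 17 listed, 16 were tested, and 5, 13 and 11 passed with limma in the same order. These were 31.2%, 81.2% and 68.8%, where all genes gave 47.7%, 71.7% and 70.5%. Pparg, which passed the filter on low values only through its C57MG libraries, is counted in the 13 and the 11. The 5 between BC44 and HC11 were 3 without any one of the 4 BC44 or C57MG libraries and 2 without HC11 replicate 2. Insig1, which holds SREBP precursors in the endoplasmic reticulum, was at 63.233 and 42.472 RPKM in C57MG, 10.372 and 12.601 in BC44 and 12.278 and 12.602 in HC11. By log2 fold change BC44 stood at -2.09 relative to C57MG (SE 0.18, limma adjusted p 2.83e-05). Its relative Insig2 was at 34.2 ± 2.64 RPKM in C57MG, 22.3 ± 1.64 in BC44 and 8.89 ± 0.322 in HC11 (SD, n = 2). Insig2 was thus lowest in HC11, whereas Insig1 did not pass between BC44 and HC11 (log2 fold change -0.11, SE 0.18, limma adjusted p 0.644). Mlxip, which encodes a glucose-sensing factor, was at 10.5 ± 0.349 RPKM in HC11, 8.83 ± 0.489 in BC44 and 4.20 ± 0.342 in C57MG. Prkab1, a subunit of the AMP-activated kinase, was higher in HC11 (24.3 ± 1.8) than in BC44 (15.9 ± 0.467).

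Of 25 listed triglyceride and lipid droplet genes, 19 were tested, and 13, 16 and 16 passed with limma (68.4%, 84.2% and 84.2%, where all genes gave 47.7%, 71.7% and 70.5%). The median log2 fold changes were -0.32, -0.51 and -0.33. Dgat2, which completes triglyceride, was at 1.95 ± 0.551 RPKM in C57MG against 14.9 ± 1.68 in BC44 and 19.0 ± 3.92 in HC11. Dgat1, which catalyses the same step and was chosen after its values were seen, was at 21.8 ± 1.18 in C57MG against 3.09 ± 0.284 and 7.12 ± 0.404 (SD, n = 2). Abhd5, the co-activator of the droplet lipase, was 44.9 ± 3.51 RPKM in C57MG and 14.5 ± 1.25 and 13.4 ± 0.455 in BC44 and HC11. Soat1, which esterifies cholesterol for droplets, was at 12.9 ± 3.06 RPKM in HC11 and 7.62 ± 0.593 in C57MG, against 0.183 ± 0.00424 in BC44 (SD, n = 2). Mgll, a monoglyceride lipase gene, reached 1 RPKM only in the BC44 libraries (1.096 and 1.425). Mgll passed the filter on low values through these libraries alone and is counted in both pairs with BC44.

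Of 24 listed genes of fatty acid uptake and oxidation, 20 were tested, and 9, 12 and 12 passed with limma (45.0%, 60.0% and 60.0%, where all genes gave 47.7%, 71.7% and 70.5%), with median log2 fold changes of -0.18, -0.17 and 0.02. Fabp5, a fatty acid carrier, was at 21.1 ± 0.413 RPKM in C57MG, 77.2 ± 2.65 in BC44 and 91.6 ± 12.5 in HC11, while the uptake gene Slc27a1 was highest in C57MG at 34.4 ± 5.46 (SD, n = 2). Fabp4 was at 4.142 and 8.765 RPKM in HC11, 1.718 and 1.350 in BC44 and 0.695 and 0.407 in C57MG. Etfa, an electron carrier of mitochondrial oxidation, was highest in BC44 at 103 ± 3.53 RPKM. Ppargc1a, which passed the filter on low values only through its HC11 libraries, is counted in both pairs with HC11.

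**Figure D4:**
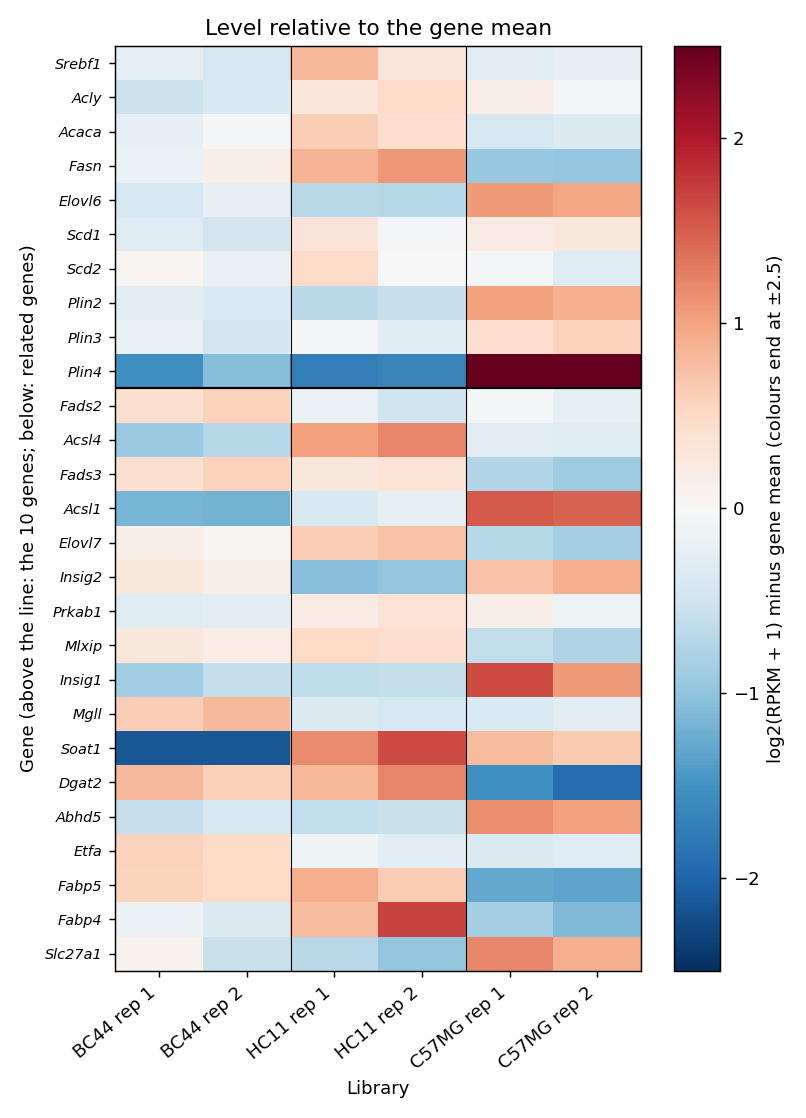
Log2(RPKM + 1) minus the gene mean (colour, ending at ±2.5) for the 10 genes, above the line, and the named related genes, below it, in 6 libraries. Plin4, Acsl1, Insig1 and Abhd5 are red in both C57MG libraries, whereas Fasn, Dgat2 and Fabp5 are blue there.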

How the data were processed

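The authors' deposited table holds RPKM for each gene and library, rounded to 3 decimals, per the table's name. Reads were aligned with STAR to mm9, per the submitters' processing notes. The counter, gene lengths and gene filter are not given in the sources used here. Coordinates are from GENCODE M21 (GRCm38) by gene identifier and promoters from RefSeq (GRCm38.p6) by symbol. Neither is the mm9 build of the alignment.

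Depth was estimated from the steps of low values times exon length: 79.1% to 85.0% of 133 to 227 values per library lay within 0.15 of a whole read, against 30.0% by chance. Length-weighted RPKM summed to 1287000 to 1360000, over the 1000000 allowed, so depths are estimates.

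Log2(RPKM + 1) values of the 10759 genes with at least 1 RPKM in at least 2 libraries were tested with limma 3.58.1 (R 4.3.3; lmFit, contrasts.fit, eBayes with trend) over all 6 libraries, two-sided, Benjamini-Hochberg adjusted per pair of lines. Fold changes on this scale understate low genes. The fit was tested on simulated data. An exact permutation test of 2 against 2 libraries cannot go below p = 0.33. Python 3.11.15 and pandas 2.3.3 were used for the rest.

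The members, lists, motifs and limits for private genes were chosen with earlier results of these data known. Named were the 10 members, the called gene with the largest change per related list, pair and direction, the 3 genes with the closest profile to Fasn, Scd1 and Plin2, and the marker genes that were highest or under 1 RPKM. Of these, 2 genes are not reported here. Genes chosen after their values were seen are Acss2, Dgat1, Epcam, Pparg, Ppargc1a and Rai1. Alternatives were another pseudocount (0.1), other filters (none, mean of 5 RPKM), quantile and median-ratio scaling, other variance settings, only the 4 libraries compared, the replicate number as a block, and each library omitted in turn.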

Additional observations from a re-analysis of the deposited data

How the results depend on the processing

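Over 15 alternatives, 384 of 405 recomputed differences of the 9 members other than Plin4 kept their direction and their side of the threshold, and 264 of 270 counts stayed within 1.5 times. All 15 kept the call for Fasn in each pair and for Plin2, Plin3 and Elovl6 against C57MG. The count of called regulators between BC44 and HC11 (5) was 3 with only the 4 libraries compared and ranged from 2 to 4 when 1 library was left out. The log2 ratio of Scd2 to Scd1 in HC11 (1.78) was 1.67 after quantile normalization. Signs turned for Scd1 between HC11 and C57MG (-0.10, to 0.08 without HC11 replicate 2, range -0.28 to 0.08 over omitted libraries) and Srebf1 between BC44 and C57MG (-0.08, to 0.02 without BC44 replicate 2, range -0.18 to 0.02). They turned for Scd2 between BC44 and C57MG (0.11), to -0.0044 without BC44 replicate 1 and to -0.04 without C57MG replicate 2 (range -0.04 to 0.25). The cause of these changes was not tested. Under a replicate block, 5350, 7875 and 7721 of all genes passed in the 3 pairs (5129, 7713 and 7590 without). The 7 of 9 members other than Plin4 that passed in each pair without the block also passed under it. Scd2 passed under the block for BC44 against HC11 (-0.30, limma adjusted p 0.0252) and HC11 against C57MG (0.41, 0.00415). Same-numbered libraries' deviations correlated at 0.354, -0.0387 and 0.0379 across genes, so the numbers were not taken to pair the libraries. A lone library left in a line was assumed to vary like the other lines. Among the members, depth limits Plin4 in HC11.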

Other observations

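Xdh and Btn1a1, whose proteins join Plin2 on the milk fat globule, did not follow Plin2. Xdh was at 90.4 ± 17.2 RPKM in HC11, 70.8 ± 4.10 in C57MG and 18.6 ± 1.98 in BC44 (SD, n = 2), and BC44 was lower than HC11 by limma (log2 fold change -2.21, SE 0.14, adjusted p-value 1.9e-05). As with Plin2, Xdh was higher in C57MG than in BC44 (BC44 against C57MG -1.87, SE 0.14, limma adjusted p 1.17e-05). HC11 against C57MG gave 0.34 for Xdh (SE 0.14, limma adjusted p 0.0592). Btn1a1 stayed under 1 RPKM in every library, with 0.014 and 0 in C57MG, 0.539 and 0.452 in BC44, then 0.219 and 0.532 in HC11. The other 8 of the 10 milk secretory markers, among them the casein genes and Wap, were not analysed here.

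The genes closest in profile to 3 of the members are given as a description over 6 libraries, chosen from 10758 tested genes by the root mean square distance of gene-centred log2(RPKM + 1). For Fasn they were Usp36 (0.092), Nab1 (0.12) and Mxd1 (0.12). Usp36 was at 42.9, 22.1 and 9.79 RPKM on average in HC11, BC44 and C57MG. For Scd1 the closest 2 were Gps2 (0.042) and Nagk (0.05), and for Plin2 the closest 3 were Zfp763 (0.037), Oxsm (0.051) and Usp20 (0.06). Oxsm, which encodes a mitochondrial fatty acid synthesis enzyme, was at 5.51 RPKM on average in C57MG, 1.54 in BC44 and 1.16 in HC11. Zfp763 was at 3.05, 0.708 and 0.376 RPKM in the same order, and reached 1 RPKM only in the C57MG libraries. Mxd1, listed for Fasn, was also low, at 4.52, 1.66 and 0.639 RPKM on average in HC11, BC44 and C57MG. Fold changes of such low genes are understated on this scale, so their closeness to Plin2 or Fasn depends in part on the 1 RPKM added.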
